A study of Saccharomyces cerevisiae with 12 samples.

Results

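The genes described here encode the translation factors of budding yeast, the soluble proteins that start, extend and end protein synthesis on the ribosome. The group was chosen by name and role: 35 genes for subunits of the initiation factors eIF4F, eIF1, eIF1A, eIF2, eIF2B, eIF3, eIF5 and eIF5B, the poly(A)-binding protein, the elongation factors eEF1A, eEF1B, eEF2 and eEF3, eIF5A, and the release factors. All 35 had probes among the 6256 genes of the array, and all 35 were among the 5578 genes tested. Filter cultures of the prototrophic *MAT***a** strain FY4, a derivative of S288C, grew on minimal (YNB) agarose plates and were then moved to plates with ammonium but no glucose (carbon starvation) or with glucose but no ammonium (nitrogen starvation). RNA was taken at 6 times, 10 min, 30 min and 60 min and then 120, 240 and 480 min after the move, with 1 array for each time and starvation, 12 in all. Each array set starved RNA (red, Cy5) against RNA of the zero timepoint (green, Cy3), with no dye swap, so every value below is a log2 ratio of starved over zero timepoint. The RNA was a poly(A)+ fraction loaded in about equal amounts, so a ratio is a share of the mRNA pool and does not show a change in the size of that pool.

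As background, translation begins when eIF4F binds the cap of an mRNA and poly(A)-binding protein its tail, while eIF2 with GTP brings the initiator tRNA to a small ribosomal subunit that also carries eIF1, eIF1A, eIF3 and eIF5. This complex scans to the start codon, where eIF5B joins the large subunit. eIF2B recharges eIF2 with GTP and is the step that the kinase Gcn2 slows when amino acids run short. Elongation then uses eEF1A and its exchange factor eEF1B, eEF2 and, in fungi, the ATPase eEF3. Yeast carries several of these proteins in duplicate genes, and their transcripts, with those of ribosomal proteins, are known to decline when growth slows.

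Of the 12 arrays, 4 stood apart. At 10, 30 and 60 min of carbon starvation and 10 min of nitrogen starvation, 42.69 to 78.44% of spots were well above background in the red, starved channel, against 84.83 to 93.39% on the other 8 arrays; the green channel had 84.78 to 88.49% on all 12. These 4 arrays did not follow the transcript table that the study released under the same labels, and the other 8 did. An array was taken to follow where its correlation with that table across genes reached a fixed limit. The correlations themselves are not given here. Whether the files of these 4 hold the hybridisations that their labels name was not settled. The labels were kept, so the values of the 4 and each mean over 6 arrays rest on that. Genes that respond to the nutrients followed the labels in part: *PCK1*, *FBP1*, *ICL1*, *JEN1* and *MLS1*, which glucose represses, all passed the test as raised in carbon starvation, with a median of the 5 means of 4.83, against 1.95 in nitrogen starvation. *MLS1* was also raised in nitrogen starvation (4.03, adjusted p = 0.0111), and 0 of the 5 passed the test of the difference between the starvations (adjusted p = 0.0724 to 0.799). The 5 were between -0.53 and 0.97 at 10 and 30 min of carbon starvation where measured and between 4.17 and 6.92 at 60 min. *MEP2*, *GAP1*, *DAL80*, *DAL5* and *DUR3*, which a good nitrogen source represses, all passed the test of the difference, lower in carbon than in nitrogen starvation, with a median difference of -3.48. In nitrogen starvation 4 of these 5 were raised, and *MEP2* did not pass (0.35, adjusted p = 0.59). In carbon starvation 4 of the 5 were lowered, so part of the difference is a fall there. The part that these 4 arrays play in the results was not tested beyond leaving them out, and the fit of the remaining 8 arrays holds 3 late times of carbon starvation and 5 of nitrogen starvation.

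The translation factors declined in the mRNA pool in both starvations. Their median log2 ratio in carbon starvation was -0.96, -0.81, -1.54, -2.38, -2.46 and -1.93 over the 6 times, earliest first. The medians of nitrogen starvation were -0.75, -0.39, -1.71, -1.67, -1.57 and -1.71. The first 2 times of each starvation were thus the nearest to 0 and the last 3 all lay below -1.5. Of these early arrays only that of 30 min of nitrogen starvation did not stand apart. Over the 6 times, 33, 32, 35, 33, 35 and 33 of the 35 genes were below 0 in carbon starvation and 25, 27, 32, 31, 32 and 34 in nitrogen starvation. Of all genes on the same arrays, 69.6, 69.7, 81.1, 45.5, 52.3 and 58% were below 0 in carbon starvation and 53.3, 46.2, 39.3, 29.1, 38.1 and 55.1% in nitrogen starvation. On all 12 arrays, 20 of the genes were below 0. Between 120 and 480 min, 28 of 35 stayed below -1 at all 3 times in carbon starvation and 27 of 35 in nitrogen starvation, and 13 and 4 stayed below -2. The shares of all genes that met these limits, or lay below 0 on all 12 arrays, are not given here.

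**Figure D1:**
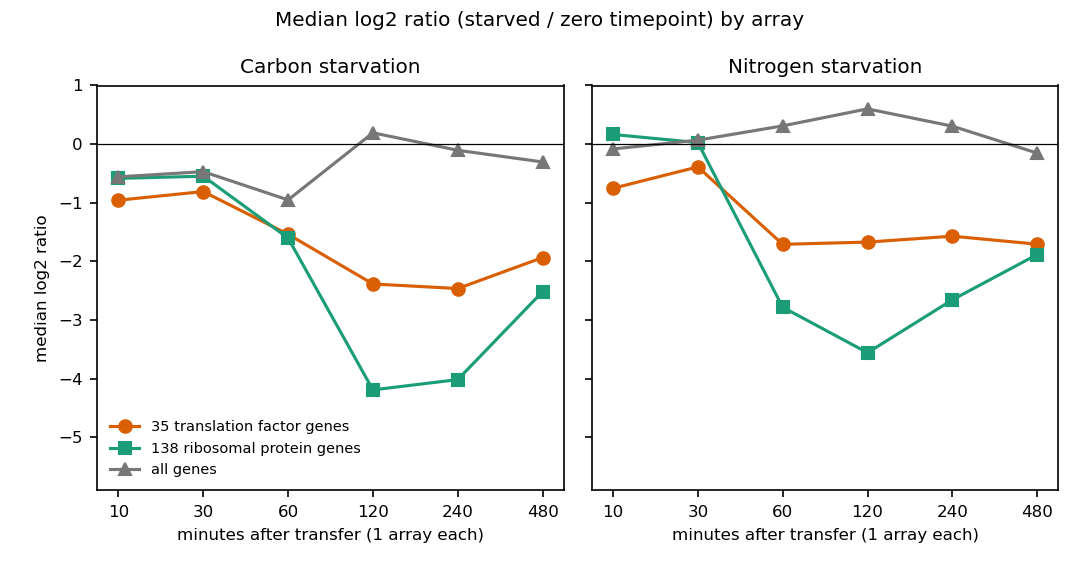
Median log2 ratio (starved over zero timepoint) on each array against time after transfer, for carbon starvation (left) and nitrogen starvation (right): circles are the 35 translation factor genes, squares 138 ribosomal protein genes and triangles all genes. The factors' median lies below that of all genes on all 12 arrays, while the ribosomal protein median reaches -4.19 at 120 min of carbon starvation and -3.56 at 120 min of nitrogen starvation.

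In carbon starvation, 32 of 35 passed the test as lowered and 0 as raised (limma moderated test of the mean over 6 arrays, adjusted p under 0.05), where 40.2% of all genes tested were lowered and 16.4% raised. In nitrogen starvation, 24 of 35 were lowered and 0 raised, against a background of 19.4% lowered and 22.1% raised. At an unadjusted p under 0.05 the counts were 33 lowered and 0 raised in carbon starvation, and 28 lowered and 0 raised in nitrogen starvation. The shares of all genes at that threshold were 42.8% lowered and 18.3% raised in carbon starvation, and 22.6% lowered and 28.1% raised in nitrogen starvation. The median of the 35 means was -1.68 in carbon starvation and -1.40 in nitrogen starvation, beside medians over all genes of -0.37 and 0.18. Because 1 array stands for each time, these tests take the 6 times of a starvation as its observations, so the spread includes the time course, and an error of the shared zero timepoint RNA is not in it.

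The ribosomal protein genes, the other large growth-related group of the translation apparatus, had lower medians of the means, though not at each time. Theirs was -2.21 in carbon starvation, with 119 of 138 lowered and 0 raised, and -1.75 in nitrogen starvation, with 92 of 138 lowered and 0 raised. By time, it was -0.58 and -0.55 at 10 and 30 min of carbon starvation, where that of the factors was -0.96 and -0.81, and below theirs from 60 min on. At 10 and 30 min of nitrogen starvation the ribosomal protein median was 0.16 and 0.03, where that of the factors was -0.75 and -0.39. From 60 min of nitrogen starvation on it was -2.78, -3.56, -2.65 and -1.88, below the factors' median at each of these times.

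How far the array was shifted as a whole depended on the scaling. With each array centred on its median, 24 of 35 factors were lowered in carbon starvation and 25 in nitrogen starvation, with 0 raised in either, where 30.5% of all genes were lowered and 27.6% raised in carbon starvation, and 24.3% lowered and 21% raised in nitrogen starvation. With background-corrected intensities (normexp) at equal totals, 30 and 24 of 35 were lowered and 0 raised, where 16.7% of all genes were lowered and 49.2% raised in carbon starvation, and 16.1% lowered and 23.3% raised in nitrogen starvation. The count of lowered factors in carbon starvation was lowest, 21 of 35, with normexp and loess, beside 23.1% of all genes lowered and 26.9% raised. The calls lost with median centring were those of *TIF1*, *TIF2*, *CDC33*, *GCD2*, *TEF2*, *CAM1*, *ANB1* and *SUP35*, and normexp with loess lost these and those of *SUI1*, *TIF34* and *TEF1*. Normexp at equal totals lost those of *TIF4632*, *GCD2*, *CAM1* and *ANB1*.

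**Figure D2:**
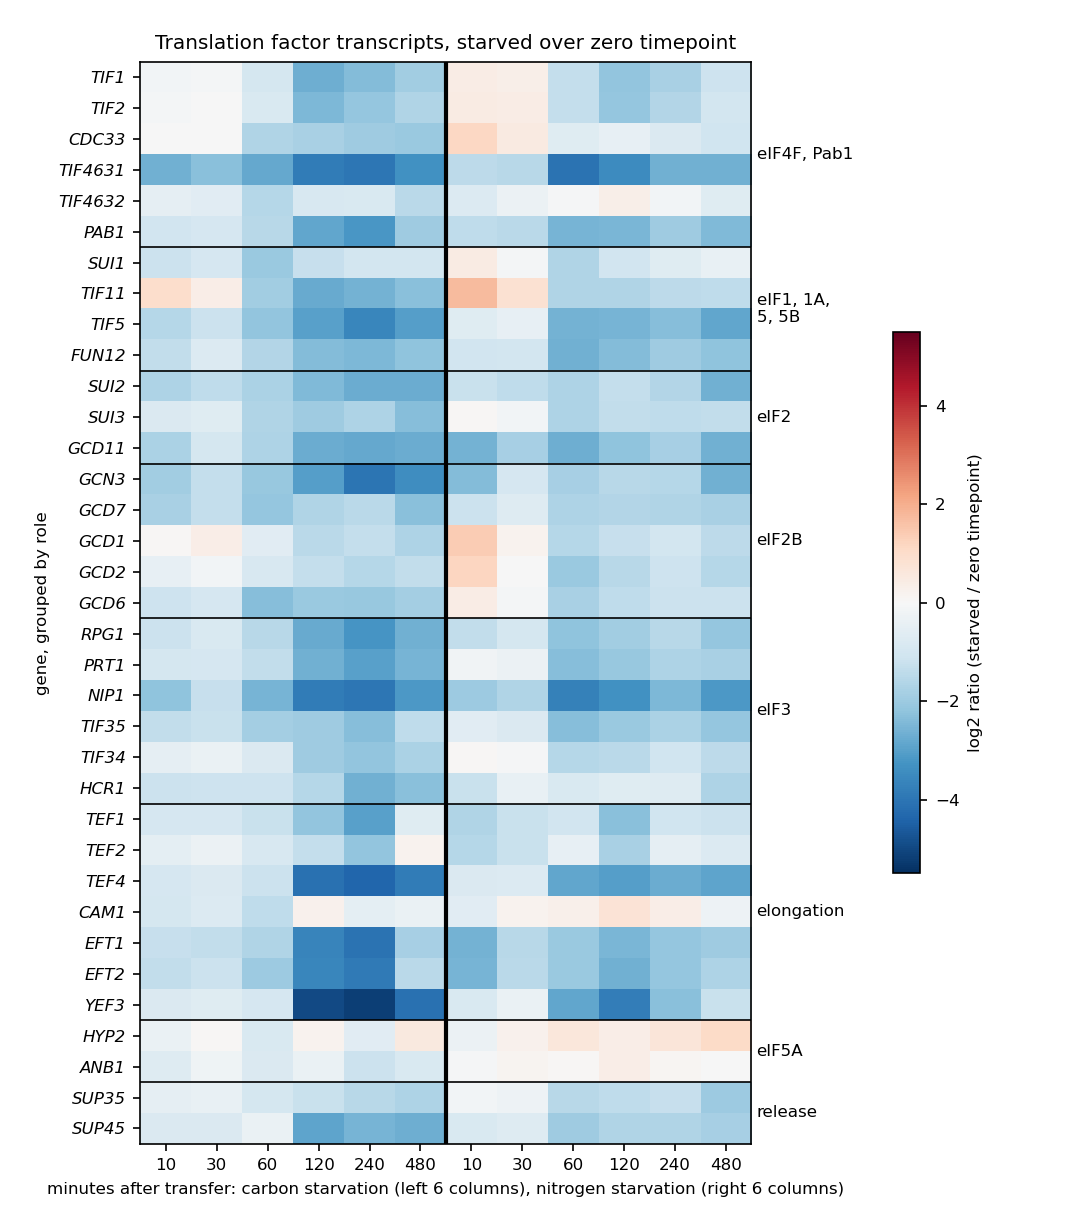
Log2 ratio (starved over zero timepoint; colour scale, blue below 0 and red above) of each of the 35 genes (rows, by role) on each of the 12 arrays (columns, minutes after transfer), carbon starvation left of the line and nitrogen starvation right of it. *YEF3* at 240 min of carbon starvation is the lowest value, at -5.16, and *TIF11* at 10 min of nitrogen starvation the highest, at 1.74.

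**Figure D3:**
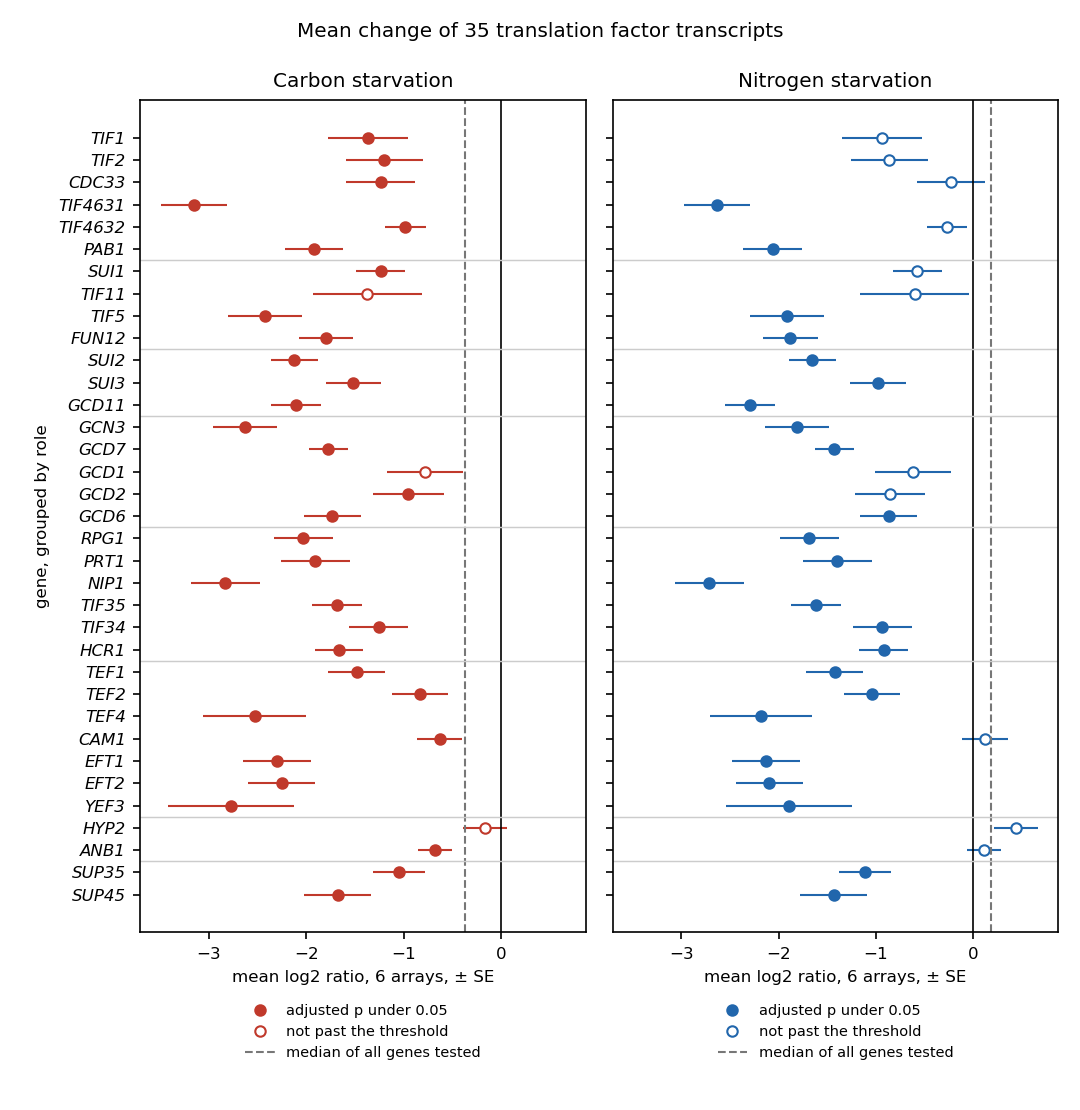
Mean log2 ratio over the 6 arrays of carbon starvation (left) and nitrogen starvation (right) for each of the 35 genes, with bars for the standard error of the fit; filled circles passed the test and open circles did not. All 35 means lie below 0 in carbon starvation and 32 in nitrogen starvation, the exceptions there being *CAM1*, *HYP2* and *ANB1*. Of all 5578 genes tested, 3520 lie below 0 in carbon starvation and 2407 in nitrogen starvation. The dashed line is the median of all genes tested.

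Among the cap and tail binding factors, all 6 were lowered in carbon starvation and 2 of 6 in nitrogen starvation, with group medians of -1.30 and -0.90. *TIF4631*, one of the genes for the eIF4G scaffold, had the largest fall of all 35 in carbon starvation. It was -2.66, -2.29, -2.83, -3.86, -3.96 and -3.34 at 10 to 480 min of carbon starvation and -1.43, -1.52, -4.05, -3.47, -2.66 and -2.65 in nitrogen starvation. It was thus low on the 10 and 30 min arrays already, of which only that of 30 min of nitrogen starvation did not stand apart. Its means over 6 arrays were -3.16 ± 0.34 in carbon starvation (SE from the shared spread, 8.92-fold lower, adjusted p = 1.62e-05) and -2.63 ± 0.34 in nitrogen starvation (6.20-fold lower, adjusted p = 0.000153). Only 0.717% of the genes tested had a lower mean in carbon starvation, and 2.72% in nitrogen starvation. *PAB1*, the poly(A)-binding protein, was the other factor of this group lowered in both, at -1.92 ± 0.30 in carbon starvation and -2.06 ± 0.30 in nitrogen starvation (adjusted p = 0.000176 and 0.000306).

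*CDC33*, the cap-binding protein eIF4E, followed another course. Its log2 ratio was 0.00, -0.02, -1.67, -1.77, -1.93 and -2.03 in carbon starvation, against 1.15, 0.50, -0.67, -0.46, -0.79 and -1.10 in nitrogen starvation. It was higher in nitrogen than in carbon starvation at every time, and its means were -1.24 ± 0.35 in carbon starvation (adjusted p = 0.0085) and -0.23 ± 0.35 in nitrogen starvation (adjusted p = 0.612). *TIF1* and *TIF2*, which both encode the helicase eIF4A, had means of -1.37 ± 0.41 and -1.20 ± 0.39 in carbon starvation (adjusted p = 0.0117 and 0.019) and -0.94 ± 0.41 and -0.86 ± 0.39 in nitrogen starvation (adjusted p = 0.0811 and 0.0926). Both lay between -0.15 and -0.04 at 10 and 30 min of carbon starvation and between 0.32 and 0.47 at these times of nitrogen starvation. The call of *TIF2* in carbon starvation was lost without the 120, 240 or 480 min array (adjusted p = 0.0705, 0.0665 and 0.0536).

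The 4 single-protein factors that act during scanning and subunit joining had 3 lowered in carbon starvation and 2 in nitrogen starvation. *TIF5*, which encodes eIF5, the GTPase-activating protein of eIF2, averaged -2.42 ± 0.38 on the log2 scale in carbon starvation and -1.92 ± 0.38 in nitrogen starvation (adjusted p = 0.000172 and 0.0017). *FUN12*, which encodes eIF5B, averaged -1.80 ± 0.28 in carbon starvation and -1.88 ± 0.28 in nitrogen starvation (adjusted p = 0.000173 and 0.000348). *SUI1*, which encodes the start-codon fidelity factor eIF1, was lowered in carbon starvation (-1.24 ± 0.25, adjusted p = 0.0011) and averaged -0.57 ± 0.25 in nitrogen starvation (adjusted p = 0.0829).

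*TIF11*, the gene of eIF1A, was the one factor above 0 at 10 and 30 min in both starvations by more than 0.3. It was 0.96, 0.37, -1.92, -2.76, -2.60 and -2.29 at 10 to 480 min of carbon starvation and 1.74, 0.83, -1.66, -1.65, -1.46 and -1.42 in nitrogen starvation. The switch of sign lay between 30 and 60 min in both. Among the 10 and 30 min arrays, only that of 30 min of nitrogen starvation did not stand apart. Its means did not pass the test, at -1.37 ± 0.56 in carbon starvation (adjusted p = 0.0505) and -0.60 ± 0.56 in nitrogen starvation (adjusted p = 0.396). Without the 10 or the 30 min array the mean in carbon starvation passed (adjusted p = 0.0131 and 0.0256). On the 8 remaining arrays both means passed as lowered (-2.55 in carbon starvation, adjusted p = 0.000293, and -1.07 in nitrogen starvation, adjusted p = 0.0154), as they did over all 12 with time point as a block (adjusted p = 0.000181 and 0.0185).

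The 3 subunits of eIF2 were all lowered in both starvations. *GCD11*, the GTP-binding gamma subunit, was -1.74, -0.96, -1.69, -2.72, -2.81 and -2.72 in carbon starvation and -2.58, -1.82, -2.66, -2.22, -1.83 and -2.64 in nitrogen starvation. Unlike most of the factors it was below -2.5 at 10 min of nitrogen starvation, on an array that stood apart, and it was -1.82 at 30 min. Its means were -2.11 ± 0.26 in carbon starvation and -2.29 ± 0.26 in nitrogen starvation (adjusted p = 3.22e-05 in carbon starvation and 8.1e-05 in nitrogen starvation). *SUI2*, the alpha subunit that Gcn2 phosphorylates, averaged -2.12 ± 0.24 in carbon starvation and -1.66 ± 0.24 in nitrogen starvation, and *SUI3*, the beta subunit, -1.52 ± 0.29 in carbon starvation and -0.98 ± 0.29 in nitrogen starvation. The call of *SUI3* in nitrogen starvation was lost without the 60 or the 240 min array (adjusted p = 0.0593 and 0.0515).

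The 5 subunits of eIF2B, the exchange factor of eIF2, had means between -2.63 and -0.78 in carbon starvation, with 4 lowered, and between -1.81 and -0.62 in nitrogen starvation, with 3 lowered. *GCN3*, the alpha subunit, which is regulatory and dispensable for growth, had the largest fall, with -1.91, -1.31, -2.10, -3.03, -4.02 and -3.41 in carbon starvation and -2.37, -0.92, -1.82, -1.54, -1.57 and -2.63 in nitrogen starvation. Its means were -2.63 ± 0.33 in carbon starvation (6.19-fold lower, adjusted p = 3.75e-05) and -1.81 ± 0.33 in nitrogen starvation (3.50-fold lower, adjusted p = 0.00103). *GCD7*, the beta subunit and its partner in the regulatory subcomplex, was lowered in both, at -1.77 ± 0.20 in carbon starvation and -1.43 ± 0.20 in nitrogen starvation (adjusted p = 2.13e-05 and 0.000245). *GCD6*, the catalytic epsilon subunit, was lowered at -1.73 ± 0.29 in carbon starvation and -0.87 ± 0.29 in nitrogen starvation (adjusted p = 0.000265 and 0.027), though the second call was lost without any one of the 60, 120, 240 and 480 min arrays (adjusted p = 0.105, 0.0852, 0.077 and 0.0702).

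*GCD1*, the gamma subunit, which pairs with *GCD6* in catalysis, started above 0. It was 0.08, 0.39, -0.63, -1.50, -1.33 and -1.70 in carbon starvation and 1.40, 0.19, -1.58, -1.27, -1.02 and -1.42 in nitrogen starvation. Of its values above 0, only the 0.19 comes from an array that did not stand apart. Neither mean passed the test (-0.78 ± 0.39, adjusted p = 0.102, in carbon starvation and -0.62 ± 0.39, adjusted p = 0.215, in nitrogen starvation). Both passed as lowered on the 8 remaining arrays (-1.51 in carbon starvation, adjusted p = 0.00137, and -1.02 in nitrogen starvation, adjusted p = 0.00413), with time point as a block (adjusted p = 0.0127 and 0.0438) and without the 10 min array of nitrogen starvation (adjusted p = 0.0461 and 0.0292). *GCD2*, the delta subunit, stood at 1.19 at 10 min of nitrogen starvation, on an array that stood apart, at -0.02 at 30 min and at -2.04 at 60 min. Its means were -0.95 ± 0.36 in carbon starvation (adjusted p = 0.0369, lost without the 60, 120, 240 or 480 min array, at 0.0588 to 0.104) and -0.85 ± 0.36 in nitrogen starvation (adjusted p = 0.0719). On the 8 remaining arrays the means in nitrogen starvation of *GCD2* (-1.26, adjusted p = 0.00153), *TIF1* (-1.20, adjusted p = 0.00572), *TIF2* (-1.13, adjusted p = 0.00827) and *SUI1* (-0.78, adjusted p = 0.0107) passed as well, as they did with time point as a block. At 60 min of carbon starvation the red spots of *GCN3* and *GCD7*, and also those of *TIF4632* and *TIF5* and 1 of the 2 of *ANB1*, were not well above background, nor was 1 of the 2 of *GCD7* at 10 min.

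All 6 measured subunits of eIF3, the large scaffold on the small ribosomal subunit, were lowered in both starvations, with group medians of -1.80 in carbon starvation and -1.51 in nitrogen starvation. *NIP1*, the c subunit, was -2.21, -1.28, -2.56, -3.83, -3.96 and -3.16 in carbon starvation and -2.01, -1.64, -3.70, -3.34, -2.45 and -3.14 in nitrogen starvation. It lay below -1.2 on all 12 arrays, and its means were -2.83 ± 0.35 in carbon starvation (7.12-fold lower), the second lowest of the 35, and -2.71 ± 0.35 in nitrogen starvation (6.56-fold lower), the lowest (adjusted p = 3.68e-05 and 0.000157). *RPG1*, the a subunit, averaged -2.03 ± 0.31 in carbon starvation and -1.68 ± 0.31 in nitrogen starvation, *PRT1*, the b subunit, -1.91 ± 0.36 in carbon starvation and -1.40 ± 0.36 in nitrogen starvation, and *TIF35*, the g subunit, -1.69 ± 0.26 in carbon starvation and -1.62 ± 0.26 in nitrogen starvation.

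The remaining eIF3 genes had the smallest falls. *HCR1*, the loosely bound j subunit, averaged -1.67 ± 0.25 in carbon starvation and -0.92 ± 0.25 in nitrogen starvation, and *TIF34*, the i subunit, -1.25 ± 0.30 in carbon starvation and -0.93 ± 0.30 in nitrogen starvation. Of the 12 calls, that of *TIF34* in nitrogen starvation was lost without the 60, 120, 240 or 480 min array (adjusted p = 0.0639 to 0.0844). In *TIF35*, 1 spot at 240 min of nitrogen starvation carried the scanner's outlier mark and was left out.

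Of the 7 elongation factor genes, all 7 were lowered in carbon starvation and 6 in nitrogen starvation, with means between -2.77 and -0.63 and between -2.18 and 0.12. *YEF3*, the gene of the fungal elongation factor eEF3, was -0.80, -0.68, -0.93, -4.95, -5.16 and -4.11 in carbon starvation, against -0.84, -0.36, -2.88, -3.81, -2.28 and -1.21 in nitrogen starvation. It was less than 1 log2 unit below the zero timepoint up to 60 min of carbon starvation and the lowest of all 35 at 120, 240 and 480 min, whereas in nitrogen starvation its lowest point was 120 min. In carbon starvation the step from 60 to 120 min is also the border between the arrays that stood apart and those that did not, so timing and set of arrays cannot be told apart there. The means of *YEF3* were -2.77 ± 0.65 in carbon starvation (6.82-fold lower, adjusted p = 0.00265) and -1.90 ± 0.65 in nitrogen starvation (3.72-fold lower, adjusted p = 0.0309). The second call was lost without the 60, 120 or 240 min array of nitrogen starvation (adjusted p = 0.0913, 0.112 and 0.0746).

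*EFT1* and *EFT2*, which encode the same translocase eEF2, gave near-equal values. *EFT2* was -1.37, -1.20, -1.99, -3.60, -3.88 and -1.48 in carbon starvation and -2.56, -1.48, -2.04, -2.64, -2.14 and -1.71 in nitrogen starvation. Its mean was -2.25 ± 0.35 in carbon starvation and -2.09 ± 0.35 in nitrogen starvation, and that of *EFT1* was -2.30 ± 0.35 in carbon starvation and -2.13 ± 0.35 in nitrogen starvation, with adjusted p between 0.00014 and 0.000581. At 480 min of carbon starvation both were well above their values at 240 min. The eEF1A genes were also higher at 480 than at 240 min of carbon starvation: *TEF2* was -0.54, -0.31, -0.88, -1.30, -2.15 and 0.18 in carbon starvation and -1.57, -1.22, -0.43, -1.80, -0.49 and -0.74 in nitrogen starvation, and *TEF1*, which encodes the same protein, was -0.67 at 480 min of carbon starvation after -2.98 at 240 min.

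*TEF1* averaged -1.48 ± 0.29 in carbon starvation and -1.42 ± 0.29 in nitrogen starvation (adjusted p = 0.000824 and 0.0021) and *TEF2* -0.84 ± 0.29 in carbon starvation and -1.04 ± 0.29 in nitrogen starvation (adjusted p = 0.0232 and 0.011). The call of *TEF2* in carbon starvation was lost without the 120 or the 240 min array (adjusted p = 0.0654 and 0.098). *TEF2* was saturated in green at 10 and 30 min of carbon starvation, *TEF1* and *TEF2* in red at 30 min of nitrogen starvation, and 1 spot of *TEF1* carried the outlier mark on each of 3 arrays. *TEF4* and *CAM1*, both genes of the gamma subunit of the exchange factor eEF1B, parted: *TEF4* averaged -2.53 ± 0.52 in carbon starvation and -2.18 ± 0.52 in nitrogen starvation (adjusted p = 0.00119 and 0.00525), whereas *CAM1* averaged -0.63 ± 0.23 in carbon starvation (adjusted p = 0.033) and 0.12 ± 0.23 in nitrogen starvation (adjusted p = 0.697). The call of *CAM1* in carbon starvation was lost in 10 of 23 alternatives, among them the 8 remaining arrays (-0.22, adjusted p = 0.442) and leaving out the 10, 30, 60 or 240 min array (adjusted p = 0.0876, 0.0715, 0.0966 and 0.059).

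The 2 genes of eIF5A, which helps the ribosome through difficult stretches such as runs of proline, had, with *CAM1*, the 3 highest means of the 35 in both starvations. *HYP2*, the form made with oxygen, was -0.35, 0.08, -0.85, 0.18, -0.61 and 0.56 in carbon starvation and -0.32, 0.22, 0.62, 0.35, 0.68 and 1.07 in nitrogen starvation. It was above 0 from 30 min on in nitrogen starvation and on either side of 0 in carbon starvation. Its means, -0.17 ± 0.23 in carbon starvation (adjusted p = 0.555) and 0.44 ± 0.23 in nitrogen starvation (adjusted p = 0.137), were the highest of the 35 in both. On the 8 remaining arrays it passed as raised in nitrogen starvation (0.59, adjusted p = 0.0293), and with normexp at equal totals as lowered in carbon starvation (-0.60, adjusted p = 0.0316).

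*ANB1*, the form made when oxygen is short, was -0.70, -0.23, -0.78, -0.35, -1.17 and -0.84 in carbon starvation and -0.06, 0.17, 0.07, 0.38, 0.10 and -0.01 in nitrogen starvation. No value of carbon starvation reached the lowest of nitrogen starvation. The green spots of *ANB1*, which hold the zero timepoint, were well above background on 12 of 12 arrays. Whether its probe also reads *HYP2* was not tested. Its mean passed as lowered in carbon starvation (-0.68 ± 0.17, adjusted p = 0.00457) and was 0.11 ± 0.17 in nitrogen starvation (adjusted p = 0.626). The mean in carbon starvation turned to 0.15 with normexp at equal totals (adjusted p = 0.433). Of the release factors, *SUP45*, eRF1, which reads stop codons, averaged -1.68 ± 0.34 in carbon starvation and -1.44 ± 0.34 in nitrogen starvation (adjusted p = 0.0011 and 0.00516), and *SUP35*, eRF3, its GTPase partner, -1.05 ± 0.27 in carbon starvation and -1.11 ± 0.27 in nitrogen starvation (adjusted p = 0.00433 and 0.00512).

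A trend with time was fitted as a slope of the log2 ratio per doubling of time. In carbon starvation, 8 of 35 passed as falling and 0 as rising, against a background of 9.45% falling and 10.5% rising. The slopes were -0.88 ± 0.26 for *YEF3*, -0.73 ± 0.17 for *TEF4*, -0.69 ± 0.17 for *TIF11*, and -0.44 for *SUP45*, -0.42 for *CDC33* and *GCN3*, -0.40 for *RPG1* and -0.39 for *TIF5*, with adjusted p between 0.0163 and 0.0498. On the 8 remaining arrays 0 of 35 passed, and the slopes of *TIF11*, *RPG1*, *TEF4*, *YEF3* and *SUP45* turned positive. That fit holds only 3 times of carbon starvation, and these 8 genes had adjusted p between 0.906 and 0.998 in it. It cannot tell a part of the arrays that stood apart from the small number of times. The count passing as falling was 1 without the 10 min array of carbon starvation, 0 without the 30 min and 0 without the 240 min array, 5 without the 480 min array, and 3 without the 240 min array of nitrogen starvation. The shares of all genes in these alternatives are not given here.

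In nitrogen starvation 0 of 35 passed as falling and 0 as rising, where 0.52% of all genes fell and 1.25% rose. At an unadjusted p under 0.05, 14 of 35 had a falling slope and 0 a rising one, beside 10.3% of all genes falling and 11.8% rising, and with a trended and robust variance in limma 4 of 35 passed as falling. By values alone, 28 of 35 genes were lower at each of 120, 240 and 480 min than at both 10 and 30 min in carbon starvation, and 23 of 35 in nitrogen starvation, beside 30.8% of all genes with these 5 values in carbon starvation and 22.7% in nitrogen starvation. In carbon starvation both early arrays stood apart and the 3 late ones did not, so time and set of arrays cannot be told apart in this count. The median over the genes of their mean at 120 to 480 min was -2.18 in carbon starvation and -1.67 in nitrogen starvation, and that at 10 and 30 min -0.93 and -0.60.

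For the difference of the starvations, 0 of 35 passed as higher and 0 as lower in carbon than in nitrogen starvation, where 0.502% of all genes were higher and 10% lower. The median difference over the 35 was -0.35, beside -0.39 over all genes. Of the 35 differences 30 were negative, beside 4126 of the 5578 over all genes tested. At an unadjusted p under 0.05, 3 were lower in carbon starvation and 0 higher, beside 23.9% of all genes lower and 2.38% higher. The 3 were *ANB1* (-0.79 ± 0.24, adjusted p = 0.0561), *CAM1* (-0.75 ± 0.33, adjusted p = 0.166) and *TIF4632* (-0.71 ± 0.29, adjusted p = 0.138). With time point as a block, *CDC33* (-1.01, adjusted p = 0.0267) and *GCD6* (-0.86, adjusted p = 0.0463) passed as lower in carbon starvation, beside 14.6% of all genes lower and 1.4% higher. With each array centred on its median, which sets the median difference over all genes to 0.09 and the background to 0.663% higher and 1% lower, 0 of 35 passed as well.

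The count of differences moved with the arrays used. On the 8 remaining arrays, which weigh late times in carbon starvation, 8 of 35 passed as lower in carbon than in nitrogen starvation, beside 18.5% of all genes lower and 8.33% higher. They were *YEF3* (-2.63, adjusted p = 0.0151), *GCN3* (-1.79, adjusted p = 0.00757), *TEF4* (-1.64, adjusted p = 0.0312), *CDC33* (-1.41, adjusted p = 0.0157), *HCR1* (-1.32, adjusted p = 0.0225), *SUP45* (-1.16, adjusted p = 0.0243), *RPG1* (-1.13, adjusted p = 0.0335) and *ANB1* (-0.93, adjusted p = 0.0311). In that fit starvation and time of sampling cannot be told apart in full.

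Several factors come from duplicated genes, and a difference between 2 genes on the same array does not depend on the factor by which that array is scaled. Of 6 pairs compared, 5 differed over the 12 arrays (two-sided exact sign-flip permutation test, p adjusted over the 6 pairs). The 12 arrays share the zero timepoint RNA and the dye order. A constant error of a gene in either would recur on every array, and this test cannot tell it from a difference. *TIF4631* was below *TIF4632*, the other eIF4G gene, on 12 of 12 arrays. *TIF4632* itself was -0.51, -0.62, -1.57, -0.89, -0.83 and -1.48 in carbon starvation and -0.75, -0.32, -0.05, 0.31, -0.14 and -0.66 in nitrogen starvation. The mean difference was -2.27 ± 1.04 (SD, n = 12 arrays, exact adjusted p = 0.00146), at -2.17 in carbon starvation and -2.36 in nitrogen starvation, and *TIF4632* averaged -0.98 in carbon starvation (adjusted p = 0.00133) and -0.27 in nitrogen starvation (adjusted p = 0.308).

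*TEF4* and *CAM1* differed mainly at the later times. Their difference was 0.05, -0.05, 0.22, -4.32, -3.82 and -3.47 in carbon starvation and -0.20, -0.97, -3.14, -3.78, -3.09 and -2.63 in nitrogen starvation. *TEF4* was the lower on 10 of 12 arrays, with a mean difference of -2.10 ± 1.76 (SD, n = 12 arrays, exact adjusted p = 0.00658). Within the starvations it was -1.90 in carbon starvation (exact p = 0.188) and -2.30 in nitrogen starvation (exact p = 0.0312), and on the 8 remaining arrays -3.15 (exact p = 0.00781). The gap was under 0.3 at 10, 30 and 60 min of carbon starvation, which are among the arrays that stood apart, and at 10 min of nitrogen starvation, another of them.

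*TEF1* lay below *TEF2* on 12 of 12 arrays, by a mean difference of -0.52 ± 0.27 (SD, n = 12 arrays, exact adjusted p = 0.00146), and *TIF1* below *TIF2* on 11 of 12, by -0.12 ± 0.09 (exact adjusted p = 0.00195). On the 9 arrays where no spot of *TEF1* or *TEF2* was saturated, a set chosen after seeing the data, their difference was -0.57 ± 0.26 (exact adjusted p = 0.0117), with *TEF1* the lower on all 9. The gap between *TIF1* and *TIF2* is of the size of the spread between duplicate spots, whose SD was 0.05 to 0.13 per array. *EFT1* and *EFT2* differed by -0.04 ± 0.18 (exact adjusted p = 0.448). The genes of these 3 pairs are near-identical in their coding parts, so their probes may read both transcripts, which was not tested.

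*HYP2* exceeded *ANB1* on 9 of 12 arrays, by 0.42 ± 0.48 (SD, n = 12 arrays, exact adjusted p = 0.0105). Within the starvations the mean gap was 0.51 in carbon starvation and 0.33 in nitrogen starvation (exact p = 0.0625 and 0.188, where 6 arrays allow no p below 0.03125). It reached 1.39 at 480 min of carbon starvation and 1.07 at 480 min of nitrogen starvation. With normexp at equal totals it turned to -0.22 (exact adjusted p = 0.533). Whether the probes of this pair share signal was not tested either.

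**Figure D4:**
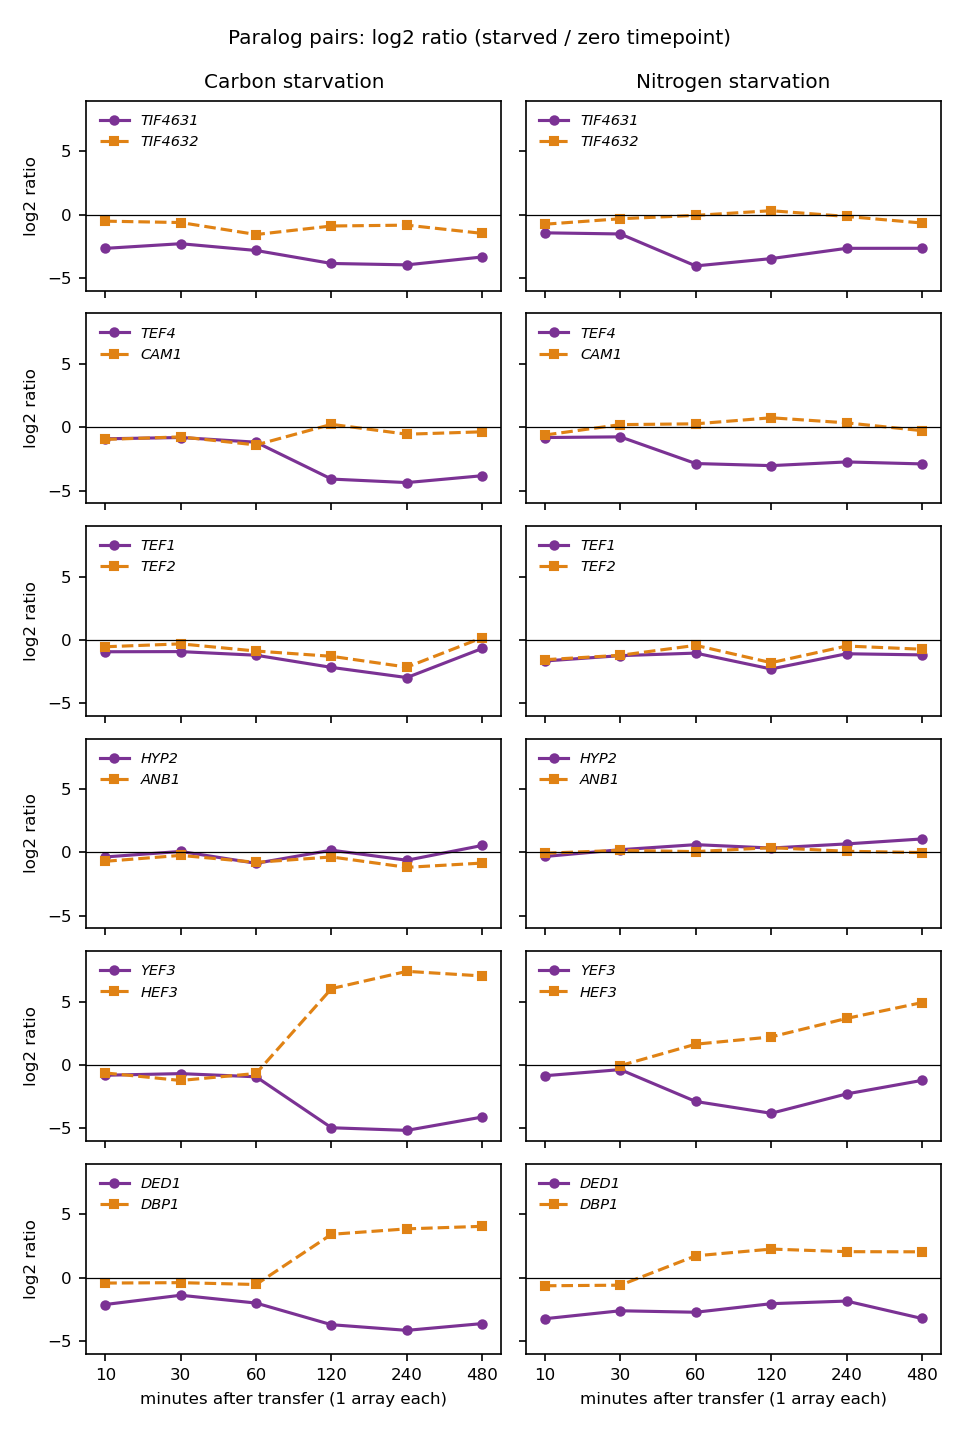
Log2 ratio (starved over zero timepoint) against minutes after transfer for 6 pairs of paralogs (rows), carbon starvation left and nitrogen starvation right, 1 array per point; circles and solid lines are the first gene of each pair, squares and dashed lines the second. At 120 to 480 min of carbon starvation *HEF3* lies above 6 and *DBP1* above 3.4 while *YEF3* and *DED1* lie below -3.6; *HEF3* had no value at 10 min of nitrogen starvation.

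Of 23 other genes that act in or on translation, 16 were lowered and 1 raised in carbon starvation, beside 40.2% of all genes lowered and 16.4% raised. In nitrogen starvation 12 were lowered and 0 raised, beside 19.4% lowered and 22.1% raised. The medians of the 23 were -1.22 and -0.82. Those that did not pass numbered 6 in carbon and 11 in nitrogen starvation, among them *GCN2*, *GCN4*, *PBP1*, *SBP1* and *EAP1* in both. Among the lowered were *RLI1*, the ribosome recycling ATPase (-2.99 in carbon starvation, adjusted p = 4.59e-05, and -2.25 in nitrogen starvation, adjusted p = 0.000721), *DED1*, the helicase that unwinds leaders during scanning (-2.84, adjusted p = 3.24e-05, and -2.62, adjusted p = 0.000171), and *TIF3*, eIF4B (-2.14, adjusted p = 0.00125, and -2.10, adjusted p = 0.00261).

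The gene raised in carbon starvation was *HEF3*, a paralog of *YEF3* that is little expressed in growing cells. It was -0.62, -1.22, -0.66, 6.04, 7.41 and 7.04 in carbon starvation and -0.04, 1.65, 2.22, 3.69 and 4.94 at 30 to 480 min of nitrogen starvation. The rise set in between 60 and 120 min in carbon starvation, the same interval in which *YEF3* dropped by over 4 log2 units. As with *YEF3*, that interval is the border between the arrays of carbon starvation that stood apart and those that did not, as it is for *DBP1*, so timing and set of arrays cannot be told apart. The mean of *HEF3* was 2.999 ± 1.18 in carbon starvation (adjusted p = 0.0448) and 2.49 ± 1.29 in nitrogen starvation (adjusted p = 0.136). The call was lost without the 120, 240 or 480 min array of carbon starvation (adjusted p = 0.135, 0.158 and 0.154) and without the 60, 120, 240 or 480 min array of nitrogen starvation (adjusted p = 0.0551, 0.056, 0.0546 and 0.0516). On the 8 remaining arrays it was raised in both (6.83, adjusted p = 1.32e-05, and 2.49, adjusted p = 0.00276). With normexp at equal totals the mean of *HEF3* was 3.61 in carbon starvation and 0.91 in nitrogen starvation (adjusted p = 0.000224 and 0.283). With normexp and loess it was 2.36 and 1.16 (adjusted p = 0.0337 and 0.3). The red spots of *HEF3* were well above background on 3 of 6 arrays of carbon starvation, and the green ones on 11 of 12 arrays.

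*DBP1*, the paralog of *DED1*, took a like course, with green spots well above background on 8 of 12 arrays and red ones on 3 of 6 arrays of carbon starvation. It was -0.43, -0.39, -0.54, 3.43, 3.86 and 4.06 in carbon starvation and -0.64, -0.59, 1.73, 2.26, 2.05 and 2.04 in nitrogen starvation. It was below 0 up to 60 min of carbon starvation and 30 min of nitrogen starvation and above 1.7 from then on, with means of 1.66 ± 0.68 in carbon starvation (adjusted p = 0.0512) and 1.14 ± 0.68 in nitrogen starvation (adjusted p = 0.191). As with *HEF3*, ratios where a dye was not well above background rest on weak signal, and these arrays are not named here. The mean of *DBP1* in carbon starvation passed without further scaling, with median centring and with normexp at equal totals (adjusted p = 0.0222, 0.0168 and 1.52e-05). It did not without the 120, 240 or 480 min array of carbon starvation (adjusted p = 0.153, 0.172 and 0.178). On the 8 remaining arrays both means of *DBP1* passed (3.78, adjusted p = 3.66e-05, and 1.498, adjusted p = 0.00414). The slopes of *HEF3* and *DBP1* with time in carbon starvation, 1.81 ± 0.31 for the first and 1.00 ± 0.20 for the second, passed as rising (adjusted p = 0.00626 and 0.00928). The gap of *YEF3* to *HEF3* was -11.00, -12.57 and -11.15 at 120, 240 and 480 min of carbon starvation, and that of *DED1* to *DBP1* -7.15, -8.02 and -7.69; these 2 pairs were picked after their values were seen and carry no test.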

How the data were processed

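The deposited files hold the scanner output of 12 two-colour Agilent arrays, with red and green intensities per spot. Per the file headers, the authors had processed these intensities with Feature Extraction, which subtracted a spatially fitted background and normalized the dyes by LOWESS. The deposited series table of log2 ratios lay within 5e-04 of the scanner's own log ratios and served as an alternative. Its values can part from the ratio of the processed intensities. The mean of *HEF3* in carbon starvation was 3.28 from these intensities without further scaling and 3.00 from the series table. Here each array was scaled to equal red and green totals over 10263 non-control spots, after the study's methods. Outlier-marked spots were dropped, as were those that neither dye raised well above background, and spots of a gene were averaged (23 factors had 2 spots and 12 had 1). Of 6256 genes, 5578 had 4 or more values under both starvations and entered limma 3.58.1 (R 4.3.3), first with 1 mean per starvation and then with a slope on log2 minutes added. Each fit held all 12 arrays, with 1 spread per gene. P-values were adjusted over all genes tested by the Benjamini-Hochberg method, with a threshold of 0.05. Paralogs were compared by exact sign flips. All 35 factors were named in the text by their role, with values per array for extreme members, members with a trend and paralogs. Alternatives numbered 23, of which 12 left out 1 array, and 1 more, without arrays on which *TEF1* or *TEF2* had a saturated spot, was chosen after seeing the data. The members and lists were chosen with earlier results of these data known. Figures were drawn with matplotlib. Promoter motifs and sequences were not analysed here. As nothing states separate cultures for repeat samples, p-values measure only the spread between these arrays, and the number of arrays limits the precision.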

Additional observations from a re-analysis of the deposited data

Results flagged for a closer look

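Over 70 sets of 6 values (35 genes in each starvation), 2 held an array far from the other 5 by Dixon's test at 95%, where chance flags about 1 set in 20. *SUI1*, the gene of eIF1, stood at -2.04 at 60 min of carbon starvation, with the nearest of its other values there at -1.28. That array had the fewest red spots well above background of all 12, 42.69%, and the part of this in the value was not tested. *SUI2*, the alpha subunit of eIF2, stood at -2.65 at 480 min of nitrogen starvation, with the nearest other value at -1.71.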

How the results depend on the processing

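Across 23 alternatives, 0 factors passed as raised in carbon starvation, and 1 (*HYP2*) as raised in nitrogen starvation, only on the 8 arrays left without those that stood apart. On those 8 arrays 36.7% of all genes were raised in nitrogen starvation. The count lowered in carbon starvation was 21 of 35 with normexp and loess, 24 with median centring, 33 on 8 arrays, 34 with time point as a block and 28 to 34 with 1 array left out. The shares of all genes lowered were 23.1%, 30.5%, 37%, 43.3% and 36.4 to 41.3%, in the same order. In nitrogen starvation the count lowered was 20 to 29 with 1 array left out and 30 with the block, beside 14.8 to 20% and 22.6% of all genes. The count lower in carbon than in nitrogen starvation was 2 with normexp at equal totals, 1 with a trended and robust variance, 2 with time point as a replicate block (*CDC33* and *GCD6*), 8 on 8 arrays and 0 to 1 with 1 array left out. Of all genes, 4.3%, 12.5%, 14.6%, 18.5% and 4.04 to 12.5% were lower, in the same order. The block pairs arrays by time only, since 1 array stands for each. The count falling with time in carbon starvation was 14 with median centring, 3 with normexp at equal totals, 0 on 8 arrays and 0 to 11 with 1 array left out. In nitrogen starvation it was 1 without further scaling, 1 with normexp at equal totals, 1 from the series table, 4 with a trended and robust variance and 0 to 3 with 1 array left out. The shares of all genes with a falling slope in these alternatives are not given here. On 8 arrays the slopes turned to 0.24 for *TIF11*, 0.048 for *RPG1*, 0.13 for *TEF4*, 0.42 for *YEF3* and 0.10 for *SUP45*. With normexp at equal totals *ANB1* in carbon starvation turned to 0.15 and *HYP2* minus *ANB1* to -0.22. The causes were not tested. The other 5 paralog differences kept their side of the threshold in each alternative that gave a value. Some of these could not move them. Median centring and no further scaling leave a difference within an array as it was, and keeping only genes well above background reused the same values.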
